A study of Mus musculus and Homo sapiens with 15 samples.

Results

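The subunits of the proteasome, the protease that degrades ubiquitin-tagged proteins, are described here together with its activators, its inhibitor and its assembly chaperones. The genes were chosen by name: every symbol made of Psma to Psmg and a number, without the immune and thymus subunits Psmb8, Psmb9, Psmb10 and Psmb11. They were 44 of the 52340 genes in the table of p53 mutant mice, 44 of 56691 in the table of C57 mice and 44 of 61806 in the table of U937 cells. The rule itself used no measured value, but it was set with earlier results of these data known.

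RNA sequencing libraries of 15 samples were compared. Thymus with T-lymphoma was taken at day 150 from W/W mice, which are homozygous for the p53 mutation R282W. Of these, 3 had received water, 3 had received arsenic trioxide (ATO) and carried tumours in progression, and 3 had received ATO and carried tumours in regression. The progressing and regressing groups therefore share genotype, age and drug and were divided by outcome, so that treatment and outcome cannot be told apart in a comparison of either group with water. A second set came from tumours labelled as a CDX model in C57 mice of genotype WT, 2 given PBS and 2 given ATO. The labels do not say which cells were grafted. The last set was the human myeloid leukaemia line U937 carrying p53-R282W, with 1 library under PBS and 1 under ATO. No dose of ATO was given in the labels used here. The labels name separate samples but no separate animals, so p-values measure only the spread between these samples, which may be technical in part.

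Total counts ranged from 12800367 to 17550594 in the W/W libraries, from 12922147 to 15637644 in the C57 libraries and from 16454534 to 17872972 in U937. Libraries within the mutant mice differed in ways that the groups do not explain. The scaling factor of the TMM method was 0.747 in water replicate 2 and 0.794 in progressing replicate 2, against 1.03 to 1.16 in the other 7. Summed thymocyte markers, all 10 detected, reached 535 to 728 CPM (counts scaled to library size) under water, 2521 to 3539 in progressing and 4837 to 9780 in regressing samples. Summed B-cell markers were 3367 CPM in water replicate 2, 1371 in water replicate 1 and 71.6 in water replicate 3. Thymic epithelium markers, Psmb11 among them, summed to 1463 to 1670 CPM in regressing samples against 110 to 775 under water and 39.2 to 96.5 in progressing samples. In bulk samples fewer cells of a type and less RNA per cell cannot be told apart. In U937 cells the 6 myeloid markers were all detected and summed to 216 CPM under PBS and 190 CPM under ATO. The 3 T-cell markers CD3E, CD4 and CD8A summed to more, 493 CPM under PBS and 271 CPM under ATO. CD8A had 0 counts in either library and CD3E had 0 under PBS, so the sum under PBS was CD4 alone. The B-cell marker MS4A1 had no counts.

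The proteasome is a barrel, the 20S core, closed at its ends by regulators that select and unfold substrates. Alpha subunits form the outer rings of the barrel and control entry, and beta subunits form the inner rings, in which Psmb5, Psmb6 and Psmb7 carry the chymotrypsin-like, caspase-like and trypsin-like sites. The 19S regulator recognises ubiquitin chains, removes them and threads the substrate inward with its ring of ATPases. Alternative caps are made by Psme1 and Psme2 (PA28 alpha and beta, induced by interferon), Psme3 (PA28 gamma, nuclear) and Psme4 (PA200). When proteasome activity is limiting, the transcription factor NRF1, encoded by Nfe2l1, raises transcription of the subunit genes through antioxidant response elements in their promoters, and NF-Y binds CCAAT boxes in many of them.

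The promoters of 4 core subunits are shown because these genes had the lowest fold changes of the core in grafted tumours, described further down. RefSeq start sites on GRCm38.p6 were available for 36 member genes. Each sequence gives the 150 bases before the start site on the gene's own strand, and capitals mark TGACNNNGC (the antioxidant response element core) or CCAAT, either strand being searched and the reverse of CCAAT reading ATTGG. Of 2 start sites that the table holds for Psma6, the one nearest the gene start in the W/W table is shown, and the window of the other holds neither motif.
Psmb5, chr14:54617996-54618145, minus strand: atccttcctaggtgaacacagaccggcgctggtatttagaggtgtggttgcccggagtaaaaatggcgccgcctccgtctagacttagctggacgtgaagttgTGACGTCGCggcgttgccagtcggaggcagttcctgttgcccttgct
Psmb6, chr11:70525207-70525356, plus strand: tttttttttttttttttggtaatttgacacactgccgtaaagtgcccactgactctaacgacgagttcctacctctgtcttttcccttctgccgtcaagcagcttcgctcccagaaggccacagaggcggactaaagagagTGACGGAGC
Psmb3, chr11:97703284-97703433, plus strand: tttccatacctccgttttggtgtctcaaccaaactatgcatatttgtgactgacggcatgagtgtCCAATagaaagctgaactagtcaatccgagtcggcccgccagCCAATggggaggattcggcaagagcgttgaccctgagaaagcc
Psma6, chr12:55384072-55384221, plus strand: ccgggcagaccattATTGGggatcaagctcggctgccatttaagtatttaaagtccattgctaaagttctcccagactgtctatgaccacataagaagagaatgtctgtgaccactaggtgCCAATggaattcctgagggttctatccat

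The Psmb5 match lay 47 to 39 bases before the start site and the Psmb6 match 9 to 1 bases before it. Over the full windows, from 250 bases before to 50 after the start, TGACNNNGC was found in 6 of the 36 member genes (16.7%), beside 14.0% of all 27025 genes in the RefSeq table. The 6 were Psmb5, Psmb6, Psmc6, Psmd9, Psmd12 and Psme4. CCAAT was found in 12 of 36 (33.3%), beside 41.1% of all genes. Neither motif set the members apart from other promoters by its share, and a match of letters is no evidence of binding.

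Levels between genes were compared on the authors' length-scaled FPKM values. In W/W thymus the mean over 9 libraries was highest for Psma6, an alpha ring subunit, at 166 FPKM (range 108 to 261), followed by Psmb5 at 154 FPKM (75.0 to 358), Psmb4 at 125 FPKM (84.8 to 249) and Psmc5 at 123 FPKM (80.7 to 188). The ranges of these neighbours overlapped. At the other end stood the inhibitor Psmf1 at 7.92 FPKM (4.67 to 20.2) and the 19S chaperone Psmd9 at 6.65 FPKM (4.32 to 12.1). Psma8, the alpha subunit known from testis, was almost absent, with 20, 6 and 9 raw counts in water replicates 1 to 3, 1, 3 and 3 in progressing replicates and 8, 11 and 11 in regressing replicates. In the grafted tumours Psma8 had more, 208 to 327 counts, while Psma6 (mean 220 FPKM) and Psmb5 (mean 202 FPKM) again led. In U937 cells PSMB4 (mean 127 FPKM) and PSMA7 (mean 109 FPKM) led, and PSMA8 had 0 counts in either library.

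The comparison of regressing with water samples asked how the thymus of mice whose tumours shrank under ATO differed from untreated lymphoma. All 44 members passed the filter on low counts, and 6 fell while 0 rose, against 4.57% of all 18119 tested genes that fell and 3.13% that rose (edgeR's quasi-likelihood test, Benjamini-Hochberg adjusted p under 0.05). Those that fell were the core subunits Psma4, Psmb1 and Psmb2 and the caps Psme1, Psme2 and Psme3. The fitted log2 fold change lay below 0 for 44 of 44 members, with a median of -1.07 (2.10-fold lower), whereas 54.1% of all genes lay below 0 around a median of -0.11. In 29 of 44 members every regressing sample lay below every water sample, which held for 20.8% of all genes. Summed over the members, levels were 5574 to 13308 CPM under water and 3635 to 4371 CPM in regressing samples.

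Psma4 (ENSMUSG00000032301), an alpha ring subunit on chromosome 9 at 54950790 to 54958030 of GRCm38, was measured at 244, 344 and 268 CPM in water replicates 1 to 3. Regressing samples gave 95.1, 104 and 117 CPM. The groups were far apart, with a log2 fold change of -1.44 and an SE of 0.29 (adjusted p = 0.0205, edgeR). Errors given with ± beside log2 values are SE throughout.

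Psmb1, a structural beta subunit, gave 311, 618 and 292 CPM under water and 120, 126 and 146 CPM in regressing samples. Its log2 fold change was -1.64 ± 0.40 (adjusted p = 0.0357, edgeR), and that of Psmb2, another structural beta subunit, was -1.46 ± 0.40 (adjusted p = 0.0489, edgeR). For both genes water replicate 2 was the highest library.

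The 3 catalytic subunits did not pass the test. Psmb5 was at 107, 441 and 159 CPM under water and at 58.4, 62.7 and 97.9 CPM in regressing samples, a log2 difference of -1.69 ± 0.55 (adjusted p = 0.0793, edgeR). The groups did not overlap, but water replicate 2 stood at 441 CPM, well above the other water libraries. Psmb6 differed by -1.44 ± 0.48 (adjusted p = 0.0857) and Psmb7 by -1.10 ± 0.53 (adjusted p = 0.205, edgeR) on the log2 scale, the latter with overlapping groups. Over the whole beta ring the median log2 difference was -1.46, with 2 of 7 members called.

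Among the caps, Psme1 was at 251, 614 and 316 CPM under water and at 129, 123 and 133 CPM in regressing samples. Psme2 was at 102, 188 and 127 CPM and at 55.4, 44.3 and 63.7 CPM. Psme3 was at 264, 471 and 255 CPM and at 108, 107 and 135 CPM. The groups did not overlap for any of them. Log2 fold changes were -1.62 ± 0.42 for Psme1 (adjusted p = 0.0441), -1.35 ± 0.35 for Psme2 (adjusted p = 0.0443) and -1.50 ± 0.32 for Psme3 (adjusted p = 0.0251, edgeR). Psme4, which makes the PA200 cap, was flat at 107 to 112 CPM under water and 94.3 to 105 CPM in regressing samples, a log2 difference of -0.11 ± 0.24 (adjusted p = 0.792, edgeR). Psmf1, the PI31 regulator, differed by -0.82 ± 0.55 and was not called (adjusted p = 0.358, edgeR).

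The 19S regulator had 0 of 20 members called, including its chaperones, while its log2 medians were -0.45 over the 6 ATPases, -0.68 over the 3 other base subunits, -1.10 over the 8 lid subunits and -0.81 over the 3 chaperones. The 4 chaperones of the 20S core, Psmg1 to Psmg4, had a median of -1.16 and 0 called. At an unadjusted p under 0.05 in edgeR, 2 ATPases, 2 other base subunits, 5 lid subunits, 1 regulator chaperone and 3 core chaperones were lower, and DESeq2 called none of them. Over all members 26 of 44 were lower and 0 higher at an unadjusted p under 0.05 in edgeR, beside 16.4% of all genes that were lower. DESeq2 called 9 lower and 0 higher, beside 3136 of 52340 genes called in either direction.

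**Figure D1:**
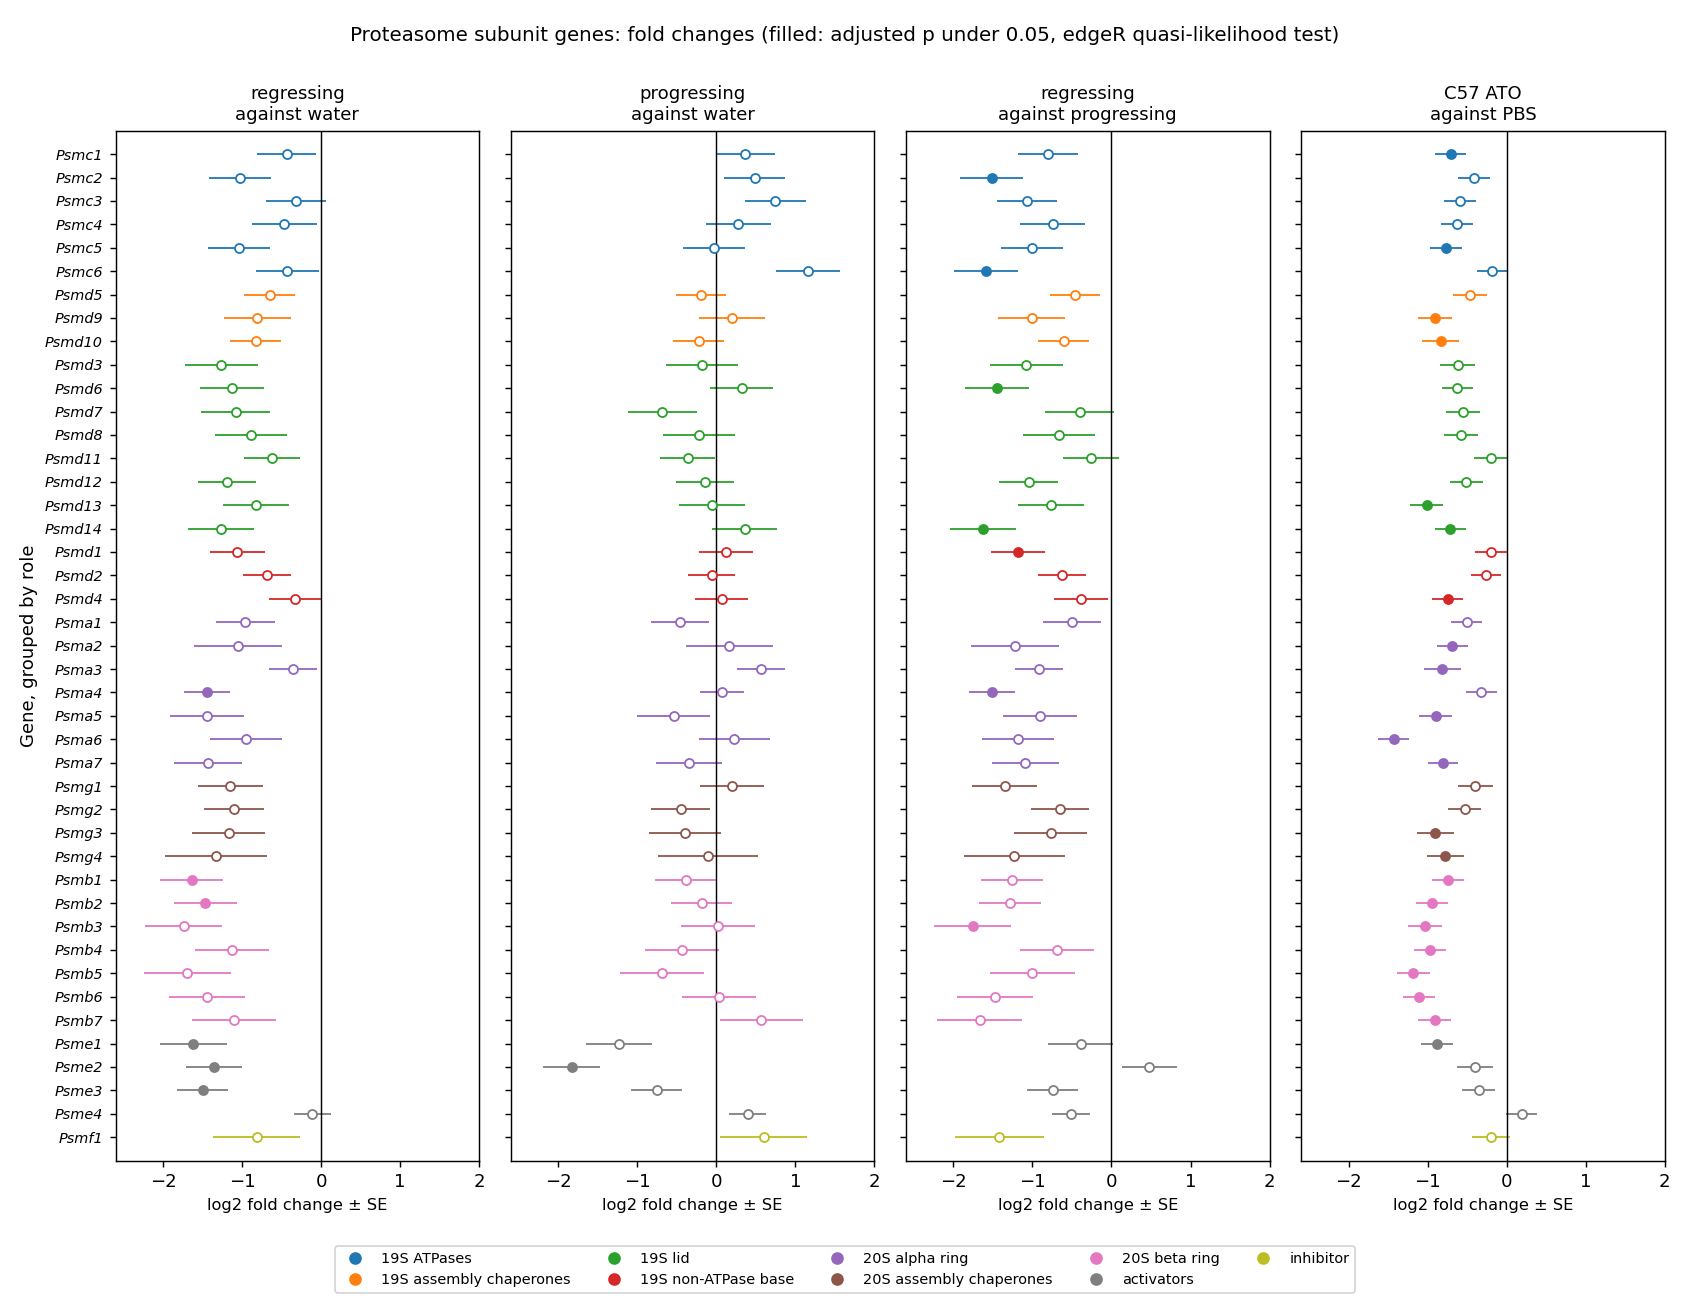
Log2 fold change (horizontal axis, points with bars of ± SE) of 43 members, coloured by role. Filled points mark an adjusted p under 0.05 in edgeR's quasi-likelihood test. The panels compare regressing with water, progressing with water, regressing with progressing, and C57 ATO with PBS samples. Psma8 is left out because its counts in progressing samples were 3 or fewer, and with it from the C57 panel, where its counts were higher. All points of the regressing against water panel lie left of 0, and those of the progressing against water panel lie on either side.

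These calls depended on single libraries. Without any 1 of the regressing libraries 0 members were called. Of all genes, 86, 60 and 546 were then called without regressing replicates 1, 2 and 3, beside 1396 with all libraries. Without water replicate 2, the library with the most B-cell marker RNA and the highest summed members, Psma4 and Psme3 stayed called, 38 of 44 members lay below 0 and the median log2 difference was -0.42, beside 0.03 for all genes. Leaving out water replicate 2 also gave the smallest differences of 2 catalytic subunits, whose log2 values ranged over such fits from -2.04 to -0.78 for Psmb5 and from -1.40 to -0.20 for Psmb7. Water replicate 2 also held more macrophage marker RNA (1445 CPM) than water replicates 1 and 3 (459 and 534 CPM). The same held for cytotoxic lymphocyte markers, at 923 CPM against 70.2 and 33.8 CPM. Adipocyte markers summed to 139 to 4792 CPM in regressing and 38.6 to 143 CPM in water samples, with 3 of 6 called higher. The part that these markers, or the thymocyte and epithelial markers that were higher in regressing samples, played in the difference was not tested.

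Progressing tumours under ATO were compared with water samples in the same fit. Here 1 member fell and 0 rose, against 7.13% of all genes that fell and 4.77% that rose. DESeq2 gave the same counts, beside 3796 of 52340 genes called in either direction. At an unadjusted p under 0.05 in edgeR 1 member was higher and 4 were lower, beside 2244 and 2933 of 18119 genes. The exception was Psme2 (ENSMUSG00000079197), on chromosome 14 at 55587441 to 55591113 of GRCm38, the beta chain of the interferon-induced cap. It was at 33.0, 56.1 and 28.3 CPM in progressing samples, each below the lowest water sample at 102 CPM, and its log2 fold change was -1.83 ± 0.36 (adjusted p = 0.0115, edgeR). The call remained in 5 of 6 fits that left out 1 library. Its partner Psme1, at 115, 261 and 129 CPM, overlapped with water and differed by -1.23 ± 0.42 (adjusted p = 0.0804, edgeR), and Psme3 differed by -0.75 ± 0.32 without overlap (adjusted p = 0.149, edgeR).

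The other members did not shift together in progressing samples. Log2 differences lay below 0 for 24 of 44 and above 0 for 20, with 51.5% of all genes below 0, and the median was -0.05 beside -0.04 over all genes. Groups were apart in 3 members on the low side (Psma8, Psme2, Psme3) and 2 on the high side (Psma3, Psme4), beside 14.7% and 11.9% of all genes. The largest differences upward were those of Psmc6 and Psmc3, ATPases of the 19S base. Psmc6 was at 196, 500 and 518 CPM in progressing samples and 133, 256 and 155 CPM under water, a log2 difference of 1.16 ± 0.40 (adjusted p = 0.0852, edgeR). Psmc3 differed by 0.75 ± 0.38 (adjusted p = 0.225, edgeR), Psmf1 by 0.60 ± 0.55 (adjusted p = 0.514) and Psme4 by 0.40 ± 0.24 (adjusted p = 0.302).

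None of the 3 catalytic subunits was called in progressing tumours. Psmb5 was at 81.5, 226 and 132 CPM and differed by -0.69 ± 0.54 (adjusted p = 0.437, edgeR). Psmb6, at 168, 488 and 277 CPM, differed by 0.03 ± 0.47 (adjusted p = 0.976), and Psmb7, at 187, 463 and 191 CPM, by 0.57 ± 0.53 (adjusted p = 0.520, edgeR). Replicate 2 was the highest progressing library for each of the 3. This comparison turned on water replicate 2 as well. Without it the median over the members was 0.45 on the log2 scale, beside 0.10 for all genes, and Psma2, Psmc1 and Psmc6 were called higher and Psme2 lower.

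**Figure D2:**
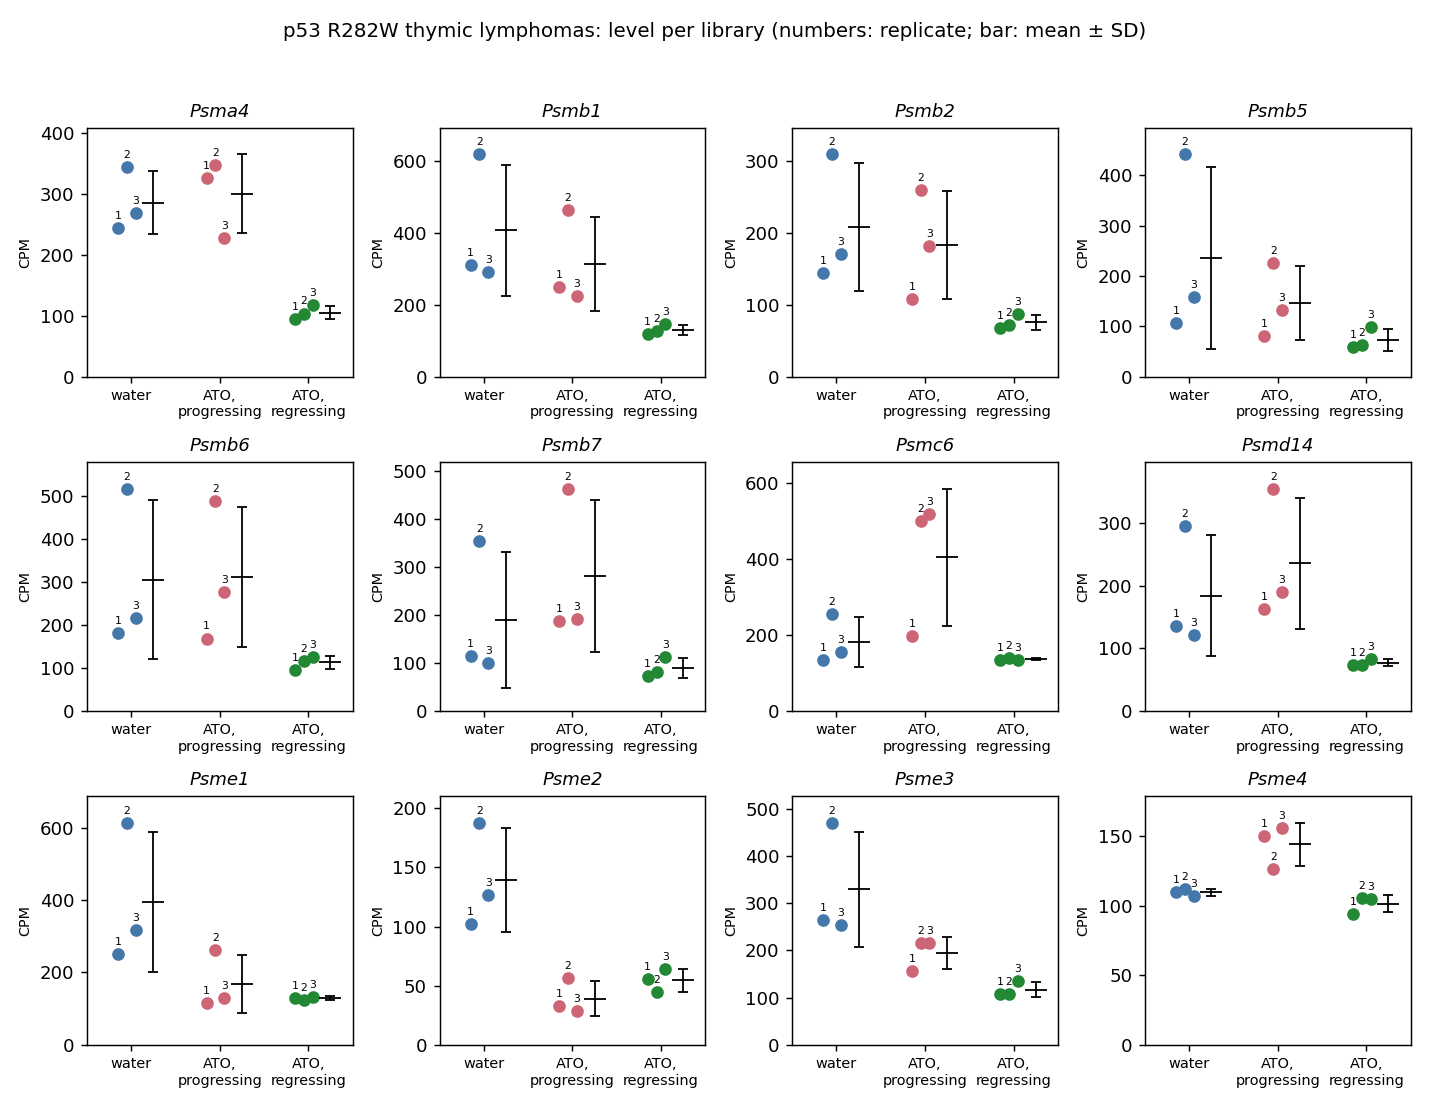
CPM (vertical axis, from 0) of 12 members in each W/W library, by group, with replicate numbers at the points and the mean ± SD of 3 libraries beside them. Water replicate 2 is the highest library of its group for each gene, and the regressing libraries lie close together.

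Regressing and progressing samples both came from ATO-treated mice, so this comparison holds the drug constant and differs in outcome. Marker sets of several cell types also differed, as given below. In it 7 members fell and 0 rose, beside 6.18% and 6.45% of all genes. At an unadjusted p under 0.05 in edgeR 22 were lower and 1, Psma8, higher, beside 2994 lower and 2757 higher of 18119 genes. DESeq2 called 12 lower and 0 higher, beside 4037 of 52340 genes called in either direction. The 7 were drawn from the core and the 19S regulator, and none was a cap. Log2 differences lay below 0 for 42 of 44 members, beside 52.3% of all genes, the exceptions being Psme2 and the barely counted Psma8, with a median of -1.0 beside -0.07 for all genes. In 33 of 44 members every regressing sample lay below every progressing sample and in 1, Psma8, above, beside 20.6% and 21.4% of all genes.

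Psma4, at 326, 348 and 227 CPM in progressing samples, was 95.1 to 117 CPM in regressing ones and fell by 1.51 ± 0.29 on the log2 scale (adjusted p = 0.0159, edgeR). Psmb3, a structural beta subunit, was at 204, 582 and 339 CPM against 97.2, 102 and 134 CPM, a log2 fold change of -1.76 ± 0.49 (adjusted p = 0.0414, edgeR). Psmd14, the deubiquitinase of the 19S lid, was at 162, 355 and 190 CPM against 73.2, 73.2 and 82.9 CPM, a log2 fold change of -1.62 ± 0.42 (adjusted p = 0.0341, edgeR). No regressing library of these genes reached the lowest progressing one.

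The ATPase Psmc6 was at 134, 138 and 133 CPM in regressing samples, within the range of water samples, and its log2 fold change against progressing samples was -1.58 ± 0.41 (adjusted p = 0.0335, edgeR). Psmc2, another ATPase, changed by -1.51 ± 0.40 (adjusted p = 0.0359). The lid subunit Psmd6 changed by -1.45 ± 0.41 (adjusted p = 0.0426), and Psmd1, the large scaffold of the base, by -1.18 ± 0.34 (adjusted p = 0.0477, edgeR). Not called were Psmb7 at -1.67 ± 0.54 (adjusted p = 0.0652), Psmb6 at -1.47 ± 0.48 (adjusted p = 0.0673), Psmf1 at -1.42 ± 0.56 (adjusted p = 0.112) and Psmb5 at -1.0 ± 0.54 (adjusted p = 0.225, edgeR).

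No cap was called between the outcomes. Psme1 differed by -0.39 ± 0.41 (adjusted p = 0.540), Psme2 by 0.48 ± 0.35 (adjusted p = 0.370), Psme3 by -0.74 ± 0.32 (adjusted p = 0.139) and Psme4 by -0.51 ± 0.24 (adjusted p = 0.169, edgeR). Whether caps and core differ in response was not tested. Leaving out progressing replicate 2 or 3 or regressing replicate 3 left 1 member called, leaving out regressing replicate 1 or 2 left 0, and leaving out progressing replicate 1 gave 11. Of all genes, 2289 were called with all libraries. That count was 2000, 1362 and 531 without progressing replicates 1 to 3 and 177, 312 and 549 without regressing replicates 1 to 3. The difference of Psmf1 ranged from -1.82 to -0.35 over these fits and was smallest without progressing replicate 2. Fibroblast markers summed to 769 to 1309 CPM in progressing, 123 to 422 CPM in regressing and 316 to 915 CPM in water samples, and 3 of 6 were called lower in regressing samples against either group. Other marker sets were called higher in regressing than progressing samples: 6 of 7 thymic epithelium, 4 of 7 interferon response and 3 of 6 B-cell markers. So were 3 of 5 tested cytotoxic lymphocyte markers and 1 of 6 adipocyte markers, while 1 of 6 proliferation markers was lower. The part of all these markers in the differences of the members was not tested.

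When both outcomes were set against water, 3 members fell and 0 rose, beside 7.3% and 3.57% of all genes. They were Psme1 (log2 fold change -1.42 ± 0.34, adjusted p = 0.0265), Psme2 (-1.59 ± 0.29, adjusted p = 0.00934) and Psme3 (-1.13 ± 0.27, adjusted p = 0.0243, edgeR). Log2 differences lay below 0 for 40 of 44 members, beside 54.6% of all genes, with a median of -0.53. Psme2 passed in each of 9 fits without 1 library, Psme3 in 6 and Psme1 in 4. In 2 of 44 members, Psme2 and Psme3, all 6 ATO samples lay below all 3 water samples, beside 6.17% of all genes. Without water replicate 2 the median over the members was -0.02 on the log2 scale and Psme2 alone was called. The 7 interferon response markers summed to 483 to 709 CPM under water, 127 to 475 CPM in progressing and 344 to 602 CPM in regressing samples. Against water, 6 of 7 were called lower in progressing samples, 0 in regressing samples and 1 for both outcomes. Their part in the levels of Psme1 and Psme2 was not tested.

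In the C57 tumours the question was how ATO changed grafts relative to PBS. Of the members, 22 of 44 fell and 0 rose, beside 6.57% and 7.37% of 15468 tested genes. Log2 differences lay below 0 for 43 of 44, beside 47.8% of all genes, with a median of -0.66 (1.58-fold lower) beside 0.04. In 41 members both ATO libraries lay below both PBS libraries and in 1, Psme4, above them, beside 30.1% and 31.6% of all genes. The members summed to 8630 and 9800 CPM under PBS and 5677 and 5846 CPM under ATO.

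In the beta ring 7 of 7 subunits fell. Psmb5 (ENSMUSG00000022193, chromosome 14, 54614119 to 54618022 of GRCm38) was at 295 and 223 CPM under PBS and at 114 and 115 CPM under ATO. Its log2 fold change was -1.18 ± 0.21 (adjusted p = 0.00965, edgeR), and ranged from -1.40 to -0.98 over the fits without 1 library. Psmb6 (ENSMUSG00000018286, chromosome 11, 70525367 to 70527858) was at 339 and 291 CPM against 154 and 138 CPM. Its log2 fold change was -1.11 ± 0.20 (adjusted p = 0.0102, edgeR), with a range of -1.24 to -1.01 over the same fits. Psmb7 was at 193 and 165 CPM against 82.5 and 107 CPM, a log2 fold change of -0.91 ± 0.21 (adjusted p = 0.0205, edgeR). Psmb3 changed by -1.03 ± 0.21 (adjusted p = 0.0144, edgeR), and the other structural subunits Psmb1, Psmb2 and Psmb4 by -0.74, -0.94 and -0.97.

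Of the alpha ring, 5 of 8 fell. Psma6 (ENSMUSG00000021024, chromosome 12, 55384222 to 55418454) was at 407 and 409 CPM under PBS and at 157 and 146 CPM under ATO. Its log2 fold change of -1.43 ± 0.20 (adjusted p = 0.00376, edgeR) was the lowest of all members. It ranged from -1.50 to -1.39 over the fits without 1 library.

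**Figure D3:**
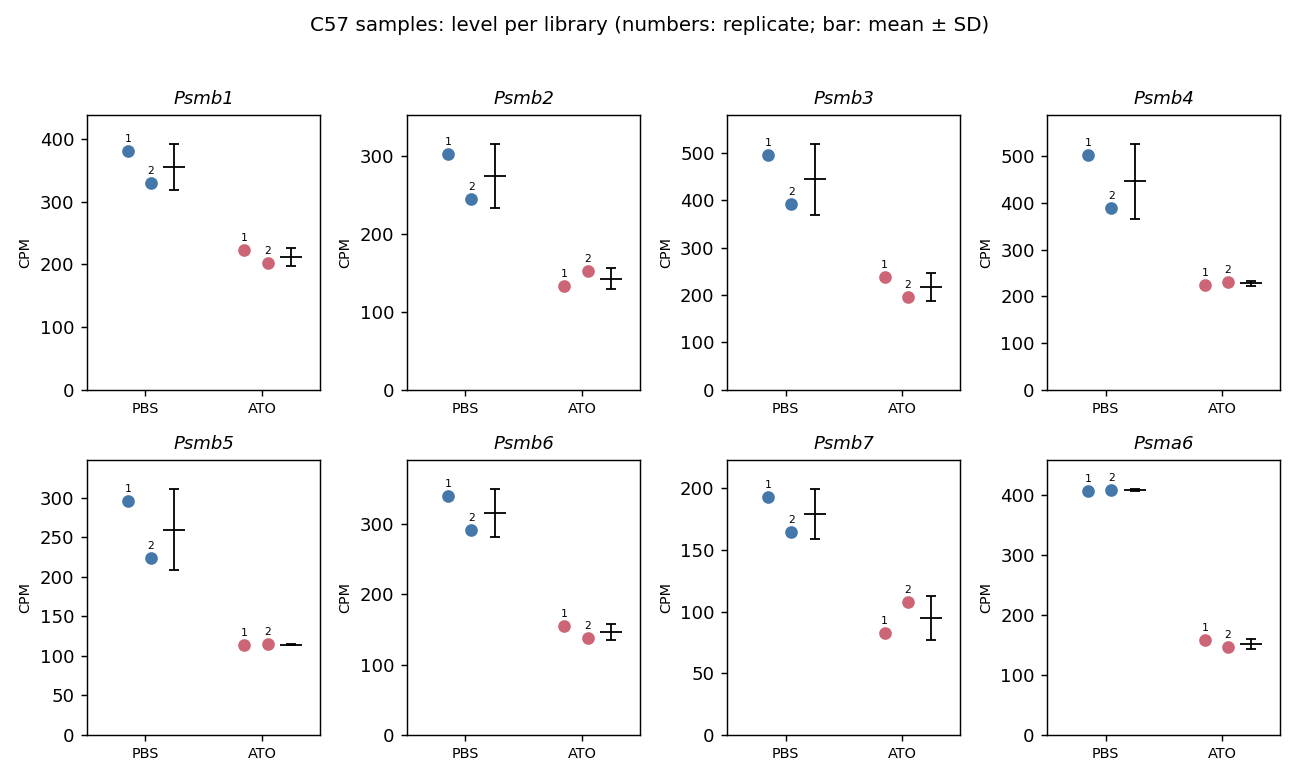
CPM (vertical axis, from 0) of the 7 beta ring subunits and Psma6 in each C57 library, with the mean ± SD of 2 libraries beside the points. The ATO libraries lie below the PBS libraries in each panel, with Psma6 at 146 to 157 CPM against 407 to 409 CPM.

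In the 19S regulator the members that fell were 2 of 6 ATPases (Psmc1 and Psmc5), 1 of 3 other base subunits (Psmd4, a ubiquitin receptor), 2 of 8 lid subunits and 2 of 3 chaperones. Psmd13, a lid subunit, was at 165 and 132 CPM under PBS and 71.8 and 75.3 CPM under ATO, with a log2 fold change of -1.01 ± 0.21 (adjusted p = 0.0137, edgeR). An overlapping gene on the same strand, Gm15542, held up to 376 counts per library, so the value of Psmd13 is uncertain where reads could be split. Psmc6 differed by -0.18 ± 0.19 only (adjusted p = 0.552, edgeR).

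Of the caps 1 of 4 fell. Psme1 was at 299 and 250 CPM against 151 and 147 CPM, a log2 fold change of -0.88 ± 0.20 (adjusted p = 0.0184, edgeR). Psme2 differed by -0.40 ± 0.23 (adjusted p = 0.248), Psme3 by -0.36 ± 0.21 (adjusted p = 0.265) and Psme4 by 0.19 ± 0.19 (adjusted p = 0.533, edgeR). The inhibitor Psmf1 differed by -0.20 ± 0.24 (adjusted p = 0.613, edgeR) with overlapping groups. Of the core chaperones, Psmg3 and Psmg4 were lower.

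Without PBS replicate 1 the median log2 difference over the members was -0.57, beside 0.06 for all genes. Without PBS replicate 2 it was -0.77, beside 0.09. Each of these fits held 1 PBS library. Which members were called also depended on the library left out, and most calls, that of Psmg4 among them, were not kept in every fit. Scaling by total counts alone moved the median over all genes to 0.24 and left 11 members lower around a median of -0.46. Other measures moved with ATO in these libraries. The share of counts from mitochondrially encoded genes was 0.521% and 1.02% under PBS and 5.98% and 4.03% under ATO. Macrophage markers summed to 279 to 372 CPM under PBS and 102 to 134 CPM under ATO, with 2 of 6 called lower, and cytotoxic lymphocyte markers to 246 to 468 CPM and 107 to 187 CPM, with 2 of 3 tested called lower. Fibroblast markers summed to 212 to 468 CPM against 600 to 1623 CPM, with 4 of 6 called higher, and skeletal muscle markers to 33.0 to 238 CPM against 328 to 351 CPM. Proliferation markers summed to 2906 to 3329 CPM under ATO against 2368 to 2514 CPM under PBS. Of these 6 markers 1 was called higher and 0 lower, around a median log2 fold change of -0.23. The part of these in the fall of the members was not tested.

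U937 cells had 1 library per condition, so no test was possible and intervals cover counting error only. Of 43 members with a mean of at least 1 CPM, 11 were more than 1.5-fold higher under ATO and 4 more than 1.5-fold lower (pseudocount 1 CPM), beside 28.2% and 17.9% of 13722 genes. The share past 1.5-fold was no larger than the background in either direction. The median log2 ratio was 0.36 beside 0.13 for all genes, and 34 of 43 (56.9% of all genes) lay above 0 when scaled by total counts but 24 of 43 when scaled by TMM, which moved the median of all genes to -0.06. The distance of the members' median from that of all genes was 0.22 in the first scaling and 0.21 in the second.

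Higher values were spread over core and 19S regulator. PSMD6, a lid subunit, was at 110 CPM under PBS and 226 CPM under ATO, a ratio of 2.05 (95% exact counting interval 1.94 to 2.17). PSMB6 had a ratio of 1.78 (1.67 to 1.91), PSMC6 of 1.78 (1.66 to 1.9) and PSMB4 of 1.74 (1.67 to 1.81). PSMC1 had a ratio of 1.97 on only 87 and 158 counts. Its processed copy PSMC1P1 held up to 401 counts, so the value of PSMC1 is uncertain. PSMB7 had a ratio of 1.63 (1.54 to 1.72), whereas PSMB5, the third catalytic subunit, was at 64.7 and 60.8 CPM, a ratio of 0.940 (0.863 to 1.02) that spans no change.

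The 4 members more than 1.5-fold lower were 2 of 4 caps, PSME1 and PSME3, and 2 of 4 core chaperones, PSMG3 and PSMG4. The core chaperone PSMG1 went the other way, with a ratio of 1.28 (1.20 to 1.38). PSME3 was at 205 CPM under PBS and 93.0 CPM under ATO, a ratio of 0.454 (0.428 to 0.483). The gene overlaps BECN1 on the opposite strand, which held up to 1018 counts, and whether counting used strand is not known. PSME1 had a ratio of 0.601 (0.553 to 0.654), PSME2 of 0.683 (0.623 to 0.748), PSMF1 of 0.854 (0.792 to 0.920) and PSME4 of 1.01 (0.964 to 1.06). PSMG4 (145 and 49 counts) had a ratio of 0.367 (0.260 to 0.511) and PSMG3 of 0.606 (0.536 to 0.684). PSMA2, at 85 and 59 counts, was too sparse for its ratio of 0.754 (0.531 to 1.06) to be told from no change. Proliferation markers were lower under ATO in the same libraries, at 955 CPM against 2378 CPM, and their part was not tested.

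**Figure D4:**
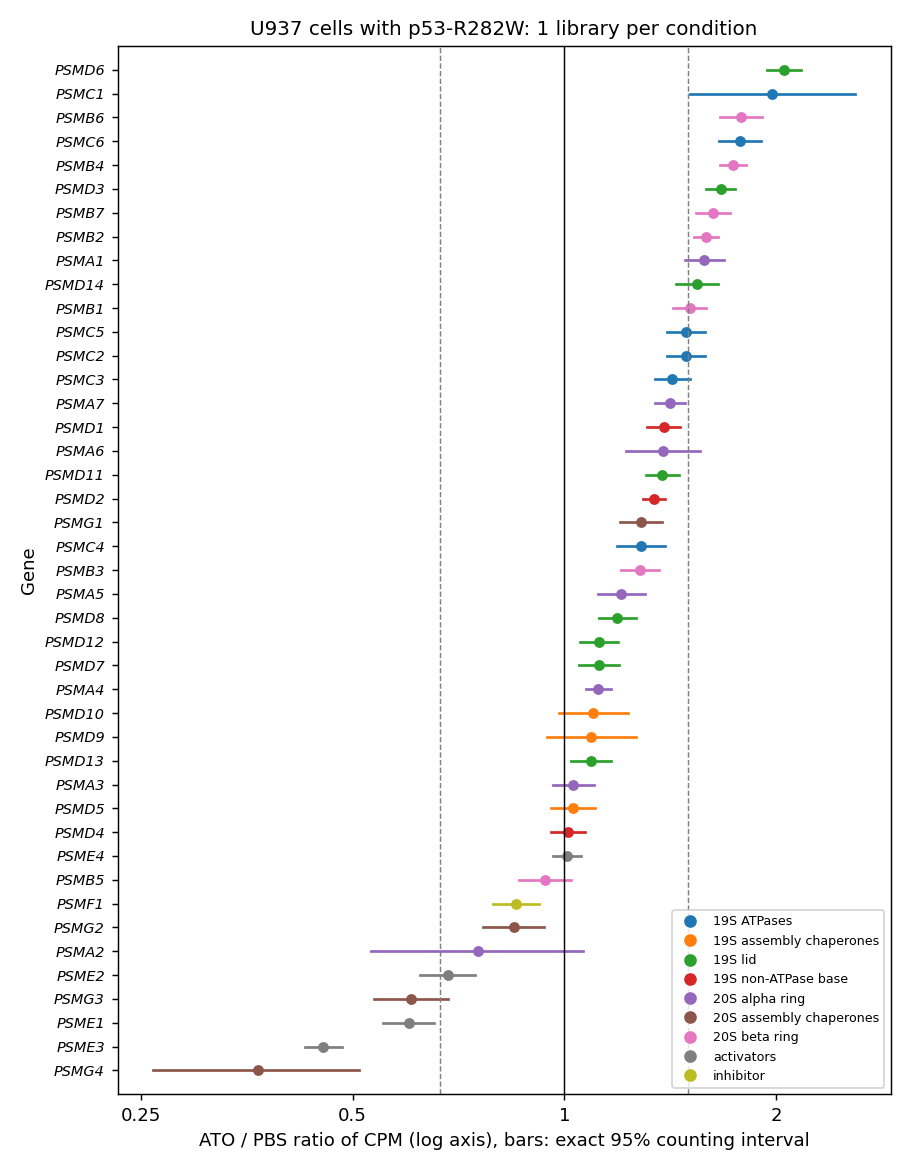
Ratio of CPM under ATO to CPM under PBS (horizontal axis, log scale) for 43 members in U937 cells, ordered by ratio and coloured by role, with bars for the exact 95% counting interval and dashed lines at 1.5-fold. PSMD6 is highest at 2.05 and PSMG4 lowest at 0.367, and the caps PSME1, PSME2 and PSME3 lie left of 1.

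Beyond the members, 39 genes that assemble, regulate or feed the proteasome were listed, of which 38 were matched in the mouse tables. Pomp, the chaperone that completes the 20S core, followed the beta ring in the grafts, at 420 and 350 CPM under PBS and 222 and 189 CPM under ATO, a log2 fold change of -0.90 ± 0.21 (adjusted p = 0.0186, edgeR). In all, 6 of 37 tested pathway genes fell in the grafts and 0 rose, beside 6.57% and 7.37% of all genes tested. Those that fell included Pomp, Sem1, Psmb8, Psmb10 and Ube3c. In W/W thymus Pomp differed by -1.19 ± 0.37 between regressing and water samples and was not called (adjusted p = 0.0696, edgeR). Nfe2l1, the NRF1 gene, was called in no mouse comparison: its log2 differences were 0.16 ± 0.35 in regressing and -0.93 ± 0.36 in progressing samples against water (adjusted p = 0.794 and 0.115), 1.09 ± 0.36 between the outcomes (adjusted p = 0.0678) and 0.33 ± 0.20 in grafts (adjusted p = 0.281, edgeR). The ubiquitin receptor Adrm1 was not called in any of these either.

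Of the 9 listed regulators of proteasome transcription, 1 rose in each comparison with water, beside 3.13% of all genes in regressing samples, 4.77% in progressing samples and 3.57% for both. Bach1, a repressor at antioxidant response elements, was at 42.4, 19.7 and 58.9 CPM under water, 157, 139 and 141 CPM in progressing and 190, 206 and 140 CPM in regressing samples. Every ATO sample was above every water sample, with log2 fold changes of 1.85 ± 0.38 (adjusted p = 0.0142) and 2.14 ± 0.39 (adjusted p = 0.0151, edgeR). Nfya, a subunit of NF-Y, was higher in regressing than progressing samples by 1.13 ± 0.27 (adjusted p = 0.0292, edgeR). Between the same groups the shuttle Rad23b and the arsenite-inducible gene Zfand2a fell by 1.16 ± 0.33 (adjusted p = 0.0436) and 2.09 ± 0.53 (adjusted p = 0.0332, edgeR).

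In U937 cells 14 of 38 pathway genes were more than 1.5-fold higher and 6 lower, beside 28.2% and 17.9% of all genes. NFE2L1 was at 172 CPM under PBS and 404 CPM under ATO, a ratio of 2.35 (95% exact counting interval 2.25 to 2.45). The arsenite-inducible ZFAND2A had a ratio of 7.75 (5.97 to 10.2) and the ubiquitin-binding autophagy receptor SQSTM1 of 5.98 (5.68 to 6.31). AKIRIN2, which brings proteasomes into the nucleus, had a ratio of 3.25 (2.98 to 3.56), ADRM1 of 1.99 (1.83 to 2.15) and POMP of 1.56 (1.45 to 1.69). On the low side stood UBA1, the main ubiquitin-activating enzyme, with 0.526 (0.503 to 0.549) and NFYB with 0.440 (0.385 to 0.502).

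The inducible subunits Psmb8, Psmb9 and Psmb10, which replace Psmb5, Psmb6 and Psmb7 in immunoproteasomes, fell in progressing samples against water by 1.06 ± 0.29, 1.37 ± 0.35 and 1.56 ± 0.43 on the log2 scale (adjusted p = 0.0384, 0.0319 and 0.0388, edgeR). In the same comparison 6 of 6 B-cell and 3 of 5 tested cytotoxic lymphocyte markers were called lower. Thymocyte markers went the other way, with 5 of 10 called higher. The part of these markers was not tested. In regressing samples Psmb8 was lower by 1.16 (log2 fold change -1.16 ± 0.29, adjusted p = 0.0381, edgeR), and Psmb11, the thymus subunit of cortical epithelium, was at 55.9 to 71.3 CPM against 0.257 to 0.991 CPM under water.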

How the data were processed

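Libraries were made from total RNA isolated with TRIzol, using a SMARTer mRNA-Seq kit, per the labels' protocols, whose text also holds a cell culture passage that fits none of these samples. Per the submitters' processing notes, FastQC 0.10.1, cutadapt 1.9.1 and HISAT2 2.0.1 were used. How reads were counted, with or without strand and on which annotation, is not given in the sources used here. The W/W, C57 and U937 sets each have 1 table, in which the authors deposited unnormalized counts of reads per gene. Beside the counts the authors deposited FPKM values, used here only to compare levels between genes. Coordinates are those of the W/W table on GRCm38.

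Samples were grouped by the labels. Counts were fitted with edgeR 4.0.16 in R 4.3.3 (filterByExpr, TMM, quasi-likelihood test, Benjamini-Hochberg adjustment over all tested genes, threshold 0.05), the 9 W/W libraries as 3 groups and the 4 C57 libraries alone, and the members' rows were read from these fits. CPM in mouse tables uses the TMM-adjusted library size and in U937 total counts. SE was the log2 fold change divided by the square root of F. Where all libraries of a group held at most 3 counts, no fold is given. For U937 the log2 ratio had a pseudocount of 1, with a minimum mean of 1 CPM. Intervals are exact (Clopper-Pearson, 95%), and cover counting error only, as the libraries carry no molecular identifiers that the labels mention.

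The members and lists were chosen with earlier results of these data known. Named were the catalytic subunits, activators and inhibitor in every comparison, and up to 5 of the largest called changes in each direction, or the 3 largest differences where fewer than 3 passed. For U937 these were the 5 largest in each direction, and of the pathway list Nfe2l1, Pomp, Adrm1, the immune and thymus subunits and genes that passed, some of which are not reported here. Psma3, Psma2, Psmc1 and other members outside this rule were named after their values were seen. The method was run on simulated data with known changes. The simulated folds were larger than the median folds of the members, and the outcome is not reported here. Replicates of a group differed by more than counting noise, but not equally. The mean chi-square per gene between replicates was 13.2 for regressing replicates 1 and 2 and 61.0 to 203 for the other W/W pairs. Whether these 2 regressing libraries came from separate animals is not given in the labels. DESeq2 1.42.0, other scalings, no low-count filter, a replicate block and leaving out each library were the alternatives.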

Additional observations from a re-analysis of the deposited data

Results flagged for a closer look

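A total of 7 members drew attention because they differed between the regressing and progressing groups, which had received the same drug, in a test of the difference itself (edgeR's quasi-likelihood test, all lower in regressing samples). Log2 differences were -1.76 for Psmb3, -1.62 for Psmd14, -1.58 for Psmc6, -1.51 for Psmc2, -1.51 for Psma4, -1.45 for Psmd6 and -1.18 for Psmd1. No regressing library reached the lowest progressing library for any of the 7. Psma4 was called in 4 of 6 fits that left out 1 library and each of the others in 1 of 6. The mitochondrial share of counts was 4.70% to 8.83% in progressing libraries and 2.08% to 8.48% in regressing ones, and its part in these differences was not tested.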

How the results depend on the processing

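In no setting run was a member called higher in a mouse comparison, except in progressing samples against water. Counts of lower members moved without the low-count filter to 11 in regressing against water, 12 in regressing against progressing and 5 for both outcomes, and with total-count scaling to 11 between the outcomes. Regressing against progressing gave 12 with DESeq2 and 18 when the water libraries were left out of the fit. In progressing against water, no filter or total counts gave 1 higher (Psmc6) and 2 lower. Total-count scaling moved the median over all genes from -0.11 to 0.09 in regressing against water, where 43 of 44 members stayed below 0 around a median of -0.76, and from -0.07 to 0.13 between outcomes. In the grafts, total counts gave 11 lower and a median of -0.46. Total counts turned Psme4 in regressing against water to 0.0902 and Psmf1 in the grafts to 0.00562. In U937, TMM gave 4 higher and a median of 0.15, and a 2-fold limit 1 higher and 2 lower.

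Leaving out 1 library moved the lower counts over 0 to 8 (regressing against water), 0 to 2 (progressing), 0 to 11 (between outcomes), 1 to 4 (both outcomes) and 4 to 18 (grafts), and the higher count of progressing over 0 to 3. Member medians ranged from -1.36 to -0.42, -0.27 to 0.45, -1.15 to -0.70, -0.74 to -0.0202 and -0.77 to -0.57 in that order. All genes called in W/W moved as well, over 60 to 1190 (regressing against water) and 907 to 2557 (progressing). They moved over 177 to 2000 between outcomes and 656 to 2099 for both outcomes. Signs turned for Psmb5 (-1.07 to 0.14), Psmb6 (-0.38 to 0.65) and Psmf1 (-0.37 to 1.01) in progressing against water, Psme1 between outcomes (-0.60 to 0.11), Psmf1 (-0.54 to 0.26) and Psmb7 (-0.58 to 0.60) for both outcomes, and Psmf1 in grafts (-0.44 to 0.0558). The cause was not tested, beyond the fewer samples in these fits.

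Replicate numbers did not pair W/W samples: correlations of same-numbered deviations ran from -0.12 to 0.14. A replicate block gave 5, 1, 6 and 3 lower in the W/W comparisons. In the grafts, where the correlation was -0.13, the block gave 13 and the crossed pairing, added after seeing the data, 26.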
